A study of Homo sapiens with 84 samples.

Results

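The libraries described here are those of Kyse30 cells treated for 6 h with EpEX or with EGFhigh, and the question is which genes differed between both ligands when they were set directly against each other. They were chosen by treatment and time in the sample labels, and comprised 7 of the 84 libraries of the series and of its 43 Kyse30 libraries. EpEX had 3 libraries, numbered 1, 3, and 4, and EGFhigh had 4 libraries, numbered 1 to 4. All 58395 listed genes were considered, of which 15350 passed the filter on low counts and were tested. Kyse30 is an established esophageal cancer line of squamous type, and the series also holds FaDu cells, which were not analysed here. Kyse30 libraries of other time points were not compared, but they entered the common fit, and so its filter and its estimate of the spread.

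EGFhigh stands for 9 nM EGF and EGFlow for 1.8 nM EGF, both given to serum-starved cells. EpEX is the soluble ectodomain of EpCAM, here produced as a fusion with the Fc part of an immunoglobulin and given at a higher molar concentration than EGF, a concentration that the sample labels leave out. Untreated cells were the control for EGF, and the Fc part alone was the control for EpEX, each with 3 libraries at 6 h. The direct contrast of EpEX with EGFhigh therefore holds the ligand, its dose, and the Fc part together, and these cannot be told apart in it. A second contrast subtracted each ligand's own control. RNA of whole cultures was read from the 3′ end, so each count is an average over cells, and fewer responding cells and a smaller response per cell cannot be told apart. Nothing in the labels says that the replicates were separate cultures, so p-values measure the spread between these libraries only.

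EGF is the classical ligand of EGFR, a receptor tyrosine kinase that signals through ERK, PI3K and AKT, and STAT proteins. ERK drives immediate early genes, growth genes, and the genes of EGFR's own ligands and inhibitors. AKT keeps FOXO transcription factors out of the nucleus, and FOXO target genes, which restrain growth, fall when growth factors are present. EpCAM is an epithelial adhesion protein whose ectodomain is released by proteases, and the released EpEX binds EGFR. IRF1 is a transcription factor best known from the interferon response.

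Upstream sequences of 3 genes are shown because their letters can be set beside the results: KLHL24, the gene that passed the test, HBP1, higher with EpEX, and IRF1, lower with EpEX. They are RefSeq sequences of the GRCh38.p14 build that end before the transcribed part, KLHL24 at chr3:183635373-183635567 on the plus strand, HBP1 at chr7:107168753-107168960 on the plus strand, and IRF1 at chr5:132490799-132491023 on the minus strand. Capitals mark an AP-1 motif (TGANTCA) in KLHL24, a FOXO motif (TGTTTAC, here on the opposite strand) in HBP1, and a GAS motif, the letters bound by STAT dimers (TTCNNNGAA), in IRF1.
KLHL24: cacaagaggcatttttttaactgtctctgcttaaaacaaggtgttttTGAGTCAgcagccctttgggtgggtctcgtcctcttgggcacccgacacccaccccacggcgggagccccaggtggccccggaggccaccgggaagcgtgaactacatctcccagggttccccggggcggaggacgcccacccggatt
HBP1: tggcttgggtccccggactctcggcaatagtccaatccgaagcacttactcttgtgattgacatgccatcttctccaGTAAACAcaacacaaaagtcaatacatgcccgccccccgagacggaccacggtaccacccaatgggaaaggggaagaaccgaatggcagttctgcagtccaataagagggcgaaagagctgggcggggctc
IRF1: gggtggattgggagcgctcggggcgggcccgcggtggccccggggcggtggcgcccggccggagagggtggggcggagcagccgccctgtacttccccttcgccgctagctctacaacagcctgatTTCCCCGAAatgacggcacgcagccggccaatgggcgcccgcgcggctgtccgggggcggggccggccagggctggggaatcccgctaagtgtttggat

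The 250 bases before the RefSeq start were searched on both strands for the 20 genes with the smallest p in either direction, of which 16 had a RefSeq promoter. Letters for AP-1 stood in 1 of these (KLHL24), for FOXO in 1 (HBP1), and for GAS in 5 (BCL6, DBP, IFI35, IRF1, and PARP14). Among 35116 promoters of the same length these letters stood in 6.57%, 2.98%, and 6.57%, respectively. CRE (TGACGTCA), E-box (CACGTG), and CArG letters stood in 0 of the 16, and in 1.65%, 6.34%, and 1.16% of all promoters. The FOXO and GAS letters were added after values were seen, the motifs do not overlap each other where printed, and a match of letters is no evidence of binding.

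Total counts on genes ranged from 1944948 to 6349257 for EpEX and from 2769098 to 9331549 for EGFhigh. EpEX replicate 4 was the shallowest library, in which 3 counts correspond to 1.54 CPM (counts scaled to library size), against 0.32 CPM in the deepest EGFhigh library. These floors cover counting error only. All 10 squamous epithelial markers had counts in some of the 7 libraries, PKP1 with only 8 counts in all and 0 in libraries of both groups, with summed levels of 1887 to 2482 CPM for EpEX and 2245 to 3797 CPM for EGFhigh. KRT5 and KRT14 were low as well, with 71 and 24 counts in all. SFN alone measured 478 to 1057 CPM for EpEX and 919 to 2519 CPM for EGFhigh. Leukocyte markers summed to 0.177 to 1.89 CPM for EpEX and 0.78 to 4.08 CPM for EGFhigh, with 3 of the 7 at 0, endothelial markers reached 5.82 CPM at most, and fibroblast markers ranged from 16.6 to 47.6 CPM over both groups. Mitochondrial genes took 6.36 to 11.9% of counts for EpEX and 5.99 to 12.5% for EGFhigh, lowest in replicate 1 of both groups, and the part of this in the results was not tested.

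Of the 15350 genes tested, 1 differed between EpEX and EGFhigh, KLHL24, which was higher with EpEX (0.00651% of genes tested). A gene was called when the adjusted p of edgeR's quasi-likelihood test (Benjamini-Hochberg) was at most 0.05 and the absolute log2 fold change (log2FC) exceeded 0.5. No gene was called lower with EpEX (0%) by edgeR in this fit of all Kyse30 libraries without the replicate number as a term, while 448 were lower at an unadjusted p under 0.05, and DESeq2 called 3 lower and 2 higher. With the replicate number as a block edgeR called 1 gene higher and 2 lower. The same block in a fit of the 7 libraries only gave 2 higher and 28 lower of 12129 tested. In the fit without the block, 456 genes (2.97%) were higher and 448 genes (2.92%) lower with EpEX at the unadjusted p. All EpEX libraries lay above all EGFhigh libraries for 488 genes (3.18%) and below them for 558 genes (3.64%). The median log2FC over all genes was -0.01, and its median standard error was 0.41. For 6391 genes (41.6%) the 95% interval lay within 1 log2 unit of zero on both sides.

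KLHL24 encodes an adaptor of the CUL3 ubiquitin ligase that controls the turnover of keratins. It lies at chr3:183635568-183684477 on the plus strand (GRCh38, GENCODE release 29). Its level was 30.3, 18.3, and 26.5 CPM in EpEX replicates 1, 3, and 4, and 8.16, 4.92, 4.49, and 7.46 CPM in EGFhigh replicates 1 to 4. The lowest EpEX library was above the highest EGFhigh library. The log2FC was 2.01 (95% interval 1.28 to 2.74, edgeR's adjusted p = 0.026). The adjusted p rose to 0.44 without EpEX replicate 1, 0.16 without EpEX replicate 4, 0.17 without EGFhigh replicate 2, and 0.24 without EGFhigh replicate 3, with log2FC values of 1.82 to 1.96. In a fit of the 6 h libraries only it was 0.38.

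The control libraries place these levels. KLHL24 stood at 52.8, 28.4, and 49.5 CPM in untreated cells and at 47.8, 35.7, and 68.1 CPM with Fc, and at 7.47, 12.6, 9.2, and 13.1 CPM with EGFlow. The lowest control library was above the highest library of either EGF dose. All EpEX libraries were above both EGF doses, and 1 of them, replicate 1, was also above the lowest untreated library. KLHL24 fell with EGFhigh against untreated cells (log2FC -2.81, edgeR's adjusted p = 1.15e-05) and with EGFlow (log2FC -2.04, edgeR's adjusted p = 0.0020). EpEX against Fc gave -1.02 (edgeR's adjusted p = 0.33), a difference that did not pass the test. These comparisons share libraries with the direct one and are given side by side.

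**Figure D1:**
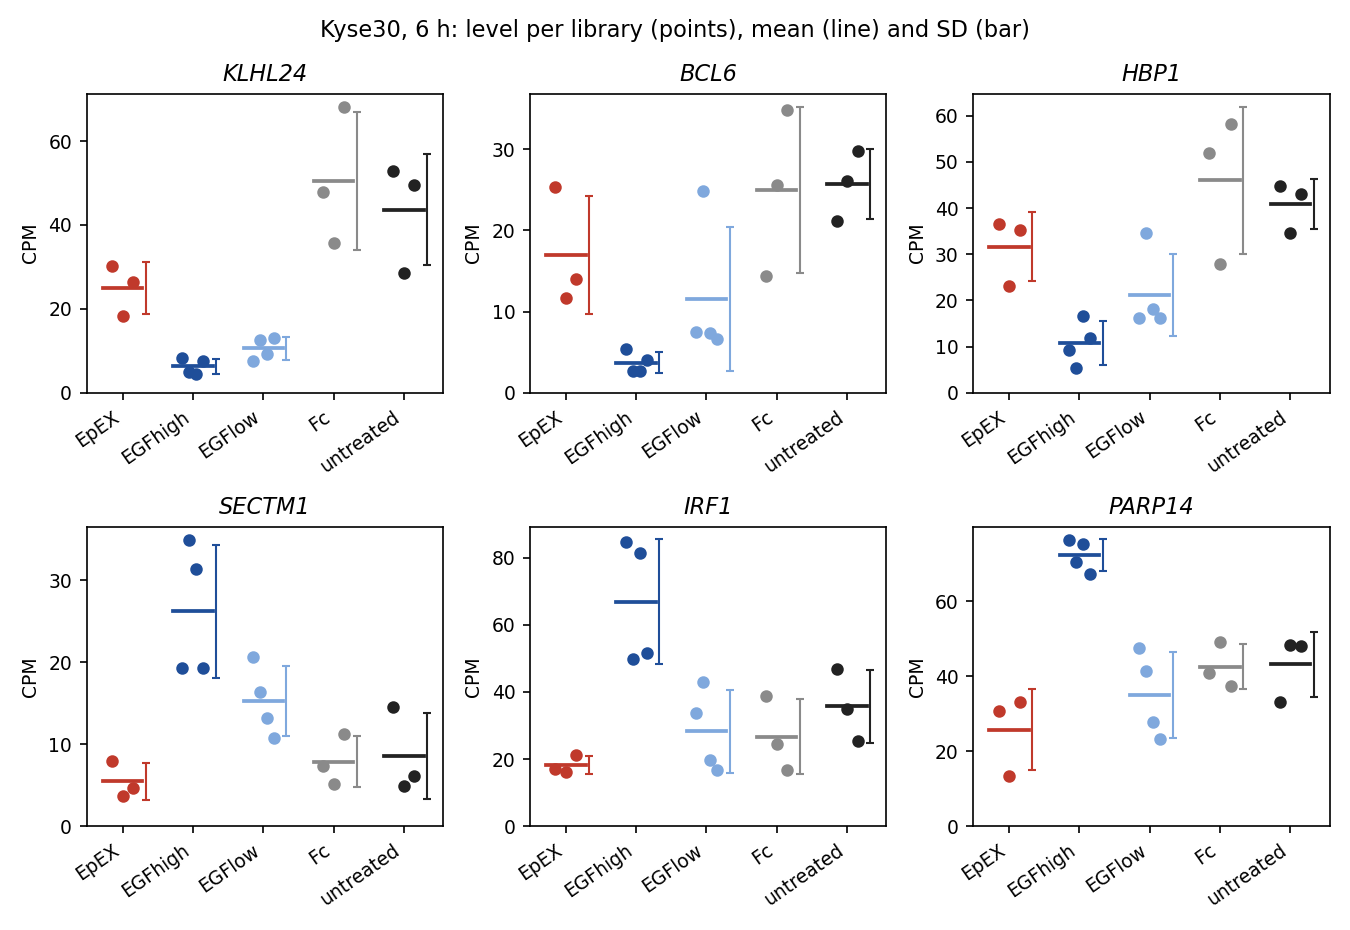
Level in CPM (vertical axis, linear from 0) of 6 genes in each Kyse30 library at 6 h, by treatment; points are libraries, lines the mean, and bars the SD (n = 3 for EpEX, Fc, and untreated, n = 4 for EGFhigh and EGFlow). The mean of KLHL24, BCL6, and HBP1 was lowest with EGFhigh, and that of SECTM1, IRF1, and PARP14 was highest with EGFhigh.

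The genes that follow had the next smallest p-values and did not pass edgeR's test, so their values describe these libraries. Among those higher with EpEX, BCL6, a transcriptional repressor at chr3:187721377-187745727, measured 25.3, 11.7, and 14.0 CPM with EpEX and 5.44, 2.63, 2.73, and 4.02 CPM with EGFhigh. Its groups did not overlap, and the log2FC was 2.25 (95% interval 1.25 to 3.26, edgeR's adjusted p = 0.18). HBP1, an HMG-box repressor of cell cycle genes at chr7:107168961-107202529, measured 36.5, 23.1, and 35.3 CPM with EpEX and 9.18, 5.44, 16.6, and 11.8 CPM with EGFhigh. Again no libraries overlapped, with a log2FC of 1.54 (95% interval 0.79 to 2.30, edgeR's adjusted p = 0.29). Both stood nearer to untreated cells with EpEX than with EGFhigh. Untreated cells measured 21.2, 26.1, and 29.7 CPM of BCL6 and 44.8, 34.7, and 42.9 CPM of HBP1. Fc, the control for EpEX, measured 14.4, 25.6, and 34.9 CPM of BCL6 and 51.8, 27.9, and 58.2 CPM of HBP1, overlapping EpEX. DBP, a transcription factor of the circadian clock, measured 9.16, 4.26, and 6.75 CPM with EpEX and 2.38, 2.28, 1.75, and 1.61 CPM with EGFhigh, again without overlap (log2FC 1.77).

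The others in this direction were UBALD2 (log2FC 0.88), the long non-coding RNA BCAN-AS1 (0.84, an antisense gene whose reads may not be told from those of its partner), BCKDHB, a subunit of the branched-chain ketoacid dehydrogenase (1.79), BMPR1A, a receptor of bone morphogenetic proteins (1.49), and RCOR3, a corepressor of the CoREST family (0.87). None of their libraries overlapped, and edgeR's adjusted p ranged from 0.30 for UBALD2 to 0.50 for RCOR3. BMF, which encodes a BH3-only protein that promotes apoptosis, had 23, 1, and 3 counts in EpEX replicates 1, 3, and 4, and 1 count over the 4 EGFhigh libraries. The ratio of its pooled CPM was 42.0, with a counting interval of 6.93 to 1721 at 95% that leaves out the spread between libraries. It was 11.9 (1.18 to 585) without EpEX replicate 1 and 66.4 without EpEX replicate 3. One EpEX library, replicate 3 with 0.177 CPM, lay within the EGFhigh range for BMF.

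Among genes lower with EpEX, SECTM1 had the smallest p. It encodes a transmembrane and secreted protein that binds CD7 and lies at chr17:82321024-82334074. SECTM1 measured 8.0, 3.72, and 4.68 CPM with EpEX and 19.4, 34.9, 31.4, and 19.3 CPM with EGFhigh. All EpEX libraries were below all EGFhigh libraries, and the log2FC was -2.22 (95% interval -3.10 to -1.34, edgeR's adjusted p = 0.057). EGFlow measured 20.6, 16.4, 13.2, and 10.8 CPM, all above EpEX and with replicate 1 inside the EGFhigh range, and untreated cells measured 14.6, 4.92, and 6.17 CPM. SECTM1 was called under 6 of the 15 alternatives, including DESeq2.

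SECTM1, IFI35, IRF1, DTX3L, and PARP14 are known from the interferon response, a grouping made after their values were seen. IRF1, at chr5:132481609-132490798, measured 17.2, 16.1, and 21.3 CPM with EpEX and 84.6, 49.9, 81.5, and 51.6 CPM with EGFhigh. The groups were well apart, and the log2FC was -1.89 (95% interval -2.86 to -0.93, edgeR's adjusted p = 0.33). In a fit of the 7 libraries alone IRF1 was the gene called (edgeR's adjusted p = 0.024) and KLHL24 was not (adjusted p = 0.053). PARP14, a mono-ADP-ribosyltransferase, measured 30.8, 13.3, and 33.2 CPM with EpEX and 76.5, 70.4, 75.5, and 67.5 CPM with EGFhigh. The 4 EGFhigh libraries lay close together and above every EpEX library (log2FC -1.51, edgeR's adjusted p = 0.33).

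DTX3L, a ubiquitin ligase, lies near PARP14 on chromosome 3, at chr3:122564238-122575203 against chr3:122680618-122730840. It measured 60.8, 62.2, and 82.1 CPM with EpEX and 112, 142, 122, and 158 CPM with EGFhigh, without overlap (log2FC -0.98, edgeR's adjusted p = 0.19). Its partner protein PARP9 is encoded on the opposite strand and overlaps the start of DTX3L, with 16.3, 9.93, and 14.6 CPM with EpEX and 26.9, 31.8, 29.3, and 20.5 CPM with EGFhigh (unadjusted p = 0.012). Whether counting used strand is not given, so reads in the overlap of both genes cannot be assigned. The overlap lies at the start of both genes, while the libraries were read from the 3′ end. PARP9 was chosen for naming after its values were seen. IFI35 measured 0.873, 1.06, and 0 CPM with EpEX and 2.04, 3.86, 6.83, and 4.71 CPM with EGFhigh (log2FC -2.49). Here EpEX also stood below its own control, at 5.28, 3.57, and 5.03 CPM with Fc (log2FC -2.56 against Fc, edgeR's adjusted p = 0.075), a difference that did not pass the test. Fc libraries measured 41.0, 49.3, and 37.5 CPM of PARP14, likewise all above EpEX. For IRF1 (38.8, 24.5, and 16.7 CPM), DTX3L (72.3, 78.2, and 74.3 CPM), and SECTM1 (7.29, 5.13, and 11.2 CPM) the Fc and EpEX libraries overlapped.

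Others in this direction were PLXNA3, a semaphorin receptor (log2FC -1.49), the protocadherin PCDH7 (-1.69), CYRIB, an inhibitor of RAC1 signalling (-0.81), and the long non-coding RNA AL445647.1. PLXNA3 measured 9.45, 12.4, and 11.9 CPM with EpEX and 26.2, 19.5, 43.7, and 36.3 CPM with EGFhigh. PCDH7 measured 14.5, 9.22, and 11.4 CPM with EpEX and 29.6, 36.0, 33.9, and 51.8 CPM with EGFhigh. Neither gene had overlapping libraries, and edgeR's adjusted p was 0.18 for PLXNA3 and 0.21 for PCDH7. AL445647.1 had 0 counts in every EpEX library and 40 counts over the EGFhigh libraries. With 3 counts over the group taken as the floor, the pooled level was at least 8.57-fold lower with EpEX. That bound covers counting error only and leaves out the spread between libraries. Untreated libraries alone ranged from 0.14 to 3.36 CPM of this gene.

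**Figure D2:**
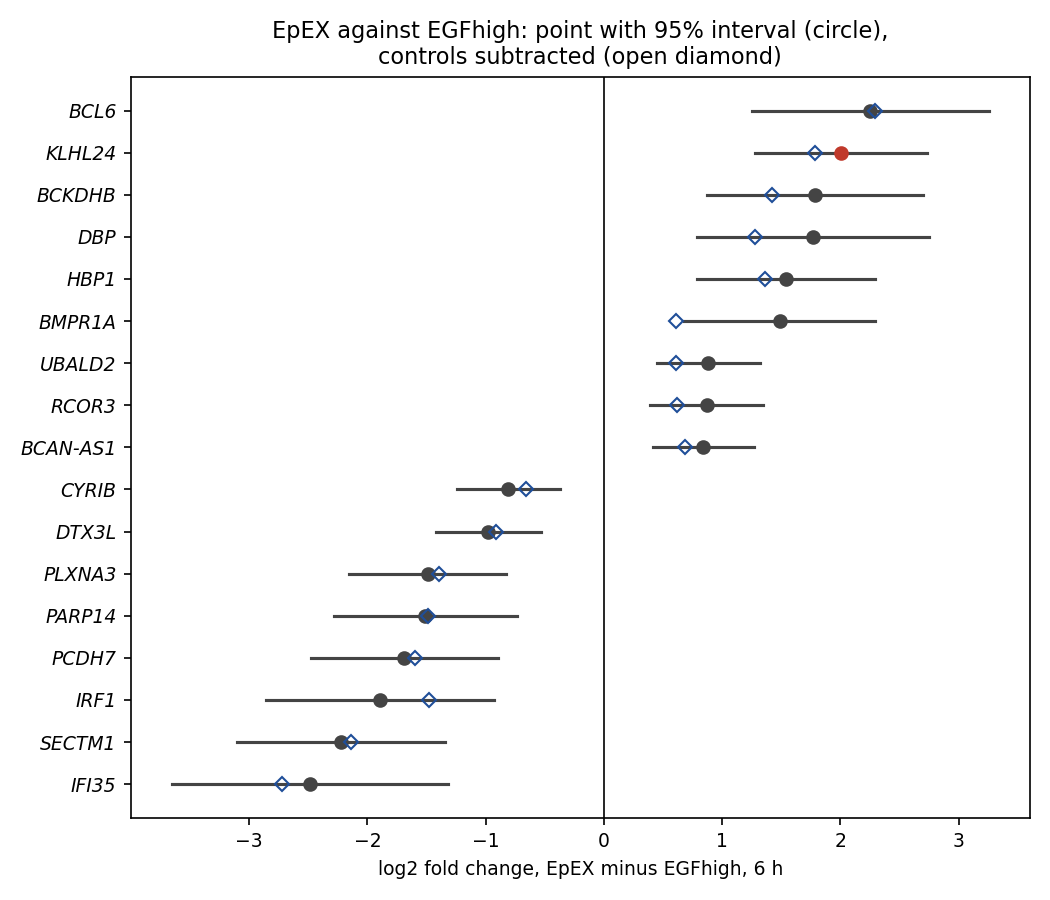
Horizontal axis, log2 fold change of EpEX minus EGFhigh at 6 h for 17 of the 20 genes with the smallest p (BMF and AL445647.1, with 1 or 0 counts in a group, are among those left out); circles with lines are the estimate and its 95% interval, red for the gene that passed the test, and open diamonds are the difference after each ligand's own control is subtracted. KLHL24 (2.01) is the only red circle, and every diamond lies on the same side of zero as its circle.

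When each ligand's own control was subtracted, 0 genes were called by edgeR (0%), 493 genes (3.21%) had an unadjusted p under 0.05, and DESeq2 called 0. The median standard error of this contrast of 4 groups was 0.60, against 0.41 for the direct one. KLHL24 kept a difference of 1.79, BCL6 of 2.29, SECTM1 of -2.14, IRF1 of -1.47, and PARP14 of -1.49. For BMPR1A the difference was 0.61 after subtraction and 1.49 before it. Fc minus untreated was 0.88 for BMPR1A and between -0.42 and 0.22 for the other 5 genes just named. The contrast contains the direct one, so agreement in sign is not separate evidence.

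Against the lower EGF dose, 0 genes were called by edgeR (0%), 760 genes (4.95%) had an unadjusted p under 0.05, and DESeq2 called 1. EpEX minus EGFlow was 1.24 for KLHL24, 0.56 for BCL6, -1.44 for SECTM1, -0.66 for IRF1, and -0.47 for PARP14. These genes were chosen for their small p against EGFhigh, so smaller values in another contrast can follow from that choice alone. The EpEX libraries are the same in both contrasts, and whether the values differ between doses was not tested here.

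Against their own controls the ligands called very different numbers of genes. EGFhigh had 206 genes higher (1.34%) and 185 lower (1.21%) than untreated cells, EGFlow 125 higher (0.814%) and 105 lower (0.684%), and EpEX 4 genes against Fc (0.0261%). At edgeR's unadjusted p under 0.05 the numbers lay closer, with 2338, 2100, and 1451 genes, respectively. EpEX had 3 libraries, 1 of them the shallowest, and each EGF dose had 4, so the numbers called do not measure the size of the responses. The genes called with EGFlow give sets whose contrast holds no EpEX or EGFhigh library. Of the 125 genes that rose with EGFlow, 109 were lower with EpEX than with EGFhigh, with a median log2FC of -0.29. Of the 105 genes that fell with EGFlow, 86 were higher with EpEX than with EGFhigh, with a median of 0.29. Over all genes tested, 50.7% were lower with EpEX and the median was -0.01.

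In the set that rose with EGFlow, 30 genes had all EpEX libraries below all EGFhigh libraries and 1 had them above. In the set that fell, 16 had them above and 0 below. Over all genes tested 3.64% had them below and 3.18% above. Single genes did not pass edgeR's test in these sets except KLHL24. In the set that rose, the log2FC was -1.48 for FST, which encodes the activin inhibitor follistatin (unadjusted p = 8.3e-04), -1.05 for TRIB1, a pseudokinase, -2.13 for ANGPTL4, a secreted inhibitor of lipoprotein lipase, and -1.25 for SPHK1, a sphingosine kinase. In the set that fell, it was 0.67 for HEXIM1, an inhibitor of the elongation factor P-TEFb, 0.70 for the phosphatase CDC25C, and 2.08 for RHOU, a small GTPase whose libraries overlapped. These 7 genes were chosen for naming after their values were seen.

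The same sets show how far EpEX went from its own control. The set that rose with EGFlow had a median log2FC of 1.15 for EGFhigh against untreated cells and of 0.87 for EpEX against Fc. In the set that fell, the medians were -1.11 and -0.62. The EGFhigh medians share the untreated libraries with the choice of the sets. EGFlow replicate 2 stood apart from the other EGFlow libraries in several genes, with 14.8 CPM of HBEGF against 85.5 to 115 CPM. Without it the set medians were -0.31, with 141 of 161 genes lower with EpEX, and 0.30, with 84 of 107 genes higher. Without untreated replicate 4 only 12 and 8 genes were called, with medians of -0.46 and 0.39.

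**Figure D3:**
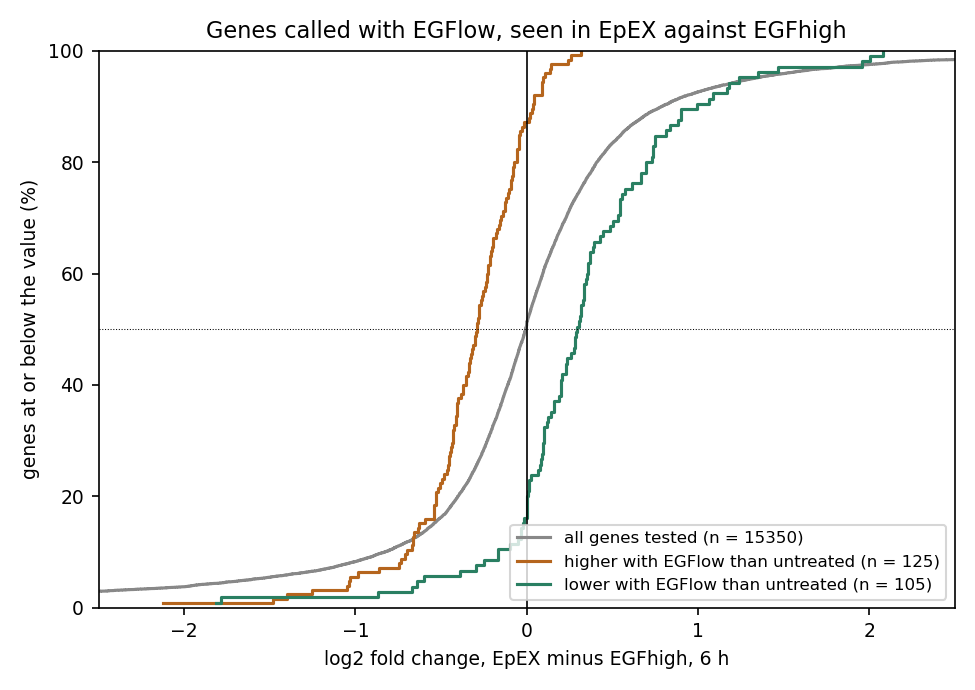
Cumulative share of genes (vertical axis, percent) at or below each log2 fold change of EpEX minus EGFhigh at 6 h (horizontal axis, shown from -2.5 to 2.5), for all 15350 genes tested, the 125 genes that rose with EGFlow, and the 105 genes that fell with it. Around the middle the curve of the genes that rose lies to the left of all genes (median -0.29) and that of the genes that fell to the right (median 0.29), and in the tails the curves cross.

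Genes of 3 EGFR ligands had lower levels in every EpEX library than in any EGFhigh library (3.64% of all genes tested), and none passed the test. AREG, which encodes amphiregulin, measured 295, 385, and 624 CPM with EpEX and 996, 861, 779, and 1193 CPM with EGFhigh. TGFA measured 36.2, 48.2, and 37.9 CPM with EpEX and 92.8, 68.5, 66.1, and 81.3 CPM with EGFhigh. HBEGF measured 44.4, 83.5, and 26.0 CPM with EpEX and 139, 90.1, 98.9, and 109 CPM with EGFhigh. No library of these 3 ligand genes overlapped between the groups, with log2FC values of -1.14, -0.91, and -1.06 and unadjusted p of 0.010, 0.022, and 0.089. AREG and HBEGF rose with EGFhigh against untreated cells (edgeR's adjusted p = 0.0046 and 0.032).

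In untreated cells AREG measured 148 to 326 CPM, below or within the range with EpEX. The receptor ERBB3 had the opposite sign, at 56.3, 41.1, and 30.1 CPM with EpEX and 38.8, 21.1, 27.1, and 20.1 CPM with EGFhigh, with overlap (log2FC 0.70, unadjusted p = 0.020). For EGFR itself, outside the rule for naming, the log2FC was 0.25 (unadjusted p = 0.15). The list of receptors and ligands had 11 members tested, 6 lower and 5 higher with EpEX, 0 called, and a median of -0.07. Libraries did not overlap for 3 members lower and 1 higher with EpEX (3.64% and 3.18% of all genes tested).

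Immediate early genes, the first targets of ERK, had 16 of 22 members lower with EpEX, a median of -0.27, 0 called, and 4 with libraries that did not overlap, all lower (3.64% of all genes tested). The list was not raised by EGFhigh at 6 h, with a median of -0.07 against untreated cells, 0 called higher and 3 lower. Its median for EpEX against Fc was -0.36. FOSL2, a subunit of AP-1, measured 19.1, 32.6, and 12.5 CPM with EpEX and 64.9, 57.2, 45.8, and 32.8 CPM with EGFhigh (log2FC -1.19, unadjusted p = 0.0019). IER2 measured 273, 326, and 268 CPM with EpEX and 393, 408, 467, and 568 CPM with EGFhigh (log2FC -0.67). Neither gene had overlapping libraries, but for FOSL2 the highest EpEX library (32.6 CPM) nearly met the lowest EGFhigh library (32.8 CPM). EGR3 was at most 0.52 CPM with EpEX, at or under 3 counts in each of its libraries, and 0.68 to 2.93 CPM with EGFhigh. Untreated cells measured 372, 412, and 403 CPM of IER2 and 2.09, 4.56, and 5.75 CPM of EGR3, all above EpEX. Fc, the control for EpEX, measured 263, 407, and 403 CPM of IER2 and 0.155, 8.02, and 4.73 CPM of EGR3. Fc replicate 1 was thus below every EpEX library for IER2 and inside the EpEX range for EGR3. Negative feedback regulators of EGFR and ERK had 13 of 19 members lower, a median of -0.32, and 0 called, and SOCS3, an inhibitor of cytokine receptors, measured 11.5, 15.8, and 6.24 CPM with EpEX and 24.1, 23.5, 36.3, and 16.5 CPM with EGFhigh (log2FC -1.12, unadjusted p = 0.092).

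Interferon-stimulated genes had 17 of 22 tested members lower with EpEX, 0 called, 4 at an unadjusted p under 0.05, and a median of -0.76. With members at 0 in a group set at their bound the median was -0.75. ISG15, a ubiquitin-like protein, measured 20.2, 29.1, and 32.2 CPM with EpEX and 65.6, 69.9, 35.9, and 41.3 CPM with EGFhigh. Its libraries did not overlap between the groups (log2FC -0.98, unadjusted p = 0.018). Fc libraries measured 44.7, 47.0, and 43.3 CPM of ISG15, all above EpEX. The sensors of viral RNA RIGI and IFIH1 had log2FC values of -1.23 and -1.32, with 1 or more EpEX libraries inside the EGFhigh range.

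Of the interferon genes, 0 of 22 were called with EGFhigh against untreated cells, with a median log2FC of 0.39, and the median with EpEX against Fc was -0.15. NF-kB targets had 11 of 14 members lower with EpEX than with EGFhigh, a median of -0.59, and 0 called. After subtraction of each ligand's control the median was -0.25. BIRC3, an inhibitor of apoptosis, measured 16.4, 13.3, and 6.75 CPM with EpEX and 49.0, 23.7, 49.7, and 11.7 CPM with EGFhigh, with overlap (log2FC -1.40). RELB, a subunit of NF-kB, measured 28.5, 41.0, and 19.2 CPM with EpEX and 41.5, 53.0, 43.3, and 51.4 CPM with EGFhigh, without overlap (log2FC -0.66). IRF1 is also a member of the NF-kB list. Leukocyte markers, given above, were at most 4.08 CPM in sum in any of the 7 libraries.

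A list of 17 genes of STAT proteins, antigen presentation, and guanylate-binding proteins was added after these values had been seen, and it is no independent evidence. In it 16 genes were lower with EpEX, 0 were called, 6 had an unadjusted p under 0.05, and the median was -0.66. NLRC5, the transactivator of MHC class I genes, measured 3.49, 6.38, and 2.08 CPM with EpEX and 25.1, 10.2, 14.4, and 17.2 CPM with EGFhigh, without overlap (unadjusted p = 0.0079). TAP1, a peptide transporter, had a log2FC of -1.61 with 1 EGFhigh library inside the EpEX range. For B2M, the light chain of MHC class I molecules, the log2FC was -0.16.

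Ribosome biogenesis genes, which supply factors for making ribosomes, had 44 of 50 members lower with EpEX, a median of -0.26, 0 called, and 10 without overlap, all lower (3.64% of all genes tested). UTP15 measured 23.1, 19.5, and 26.5 CPM with EpEX and 40.5, 34.2, 37.8, and 34.3 CPM with EGFhigh (log2FC -0.68, unadjusted p = 0.023). WDR43 measured 272, 311, and 280 CPM with EpEX and 336, 423, 376, and 480 CPM with EGFhigh (log2FC -0.49). Both were also above the Fc control with EpEX: UTP15 stood at 16.3, 15.2, and 12.9 CPM and WDR43 at 132, 202, and 148 CPM with Fc. Untreated cells overlapped EpEX, with 27.1, 13.8, and 16.1 CPM of UTP15 and 169, 285, and 200 CPM of WDR43. The median of the list was 0.72 for EGFhigh against untreated cells and 0.58 for EpEX against Fc. After subtraction of controls the list's median was -0.08, with -0.32 for UTP15 and -0.04 for WDR43.

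Mitosis genes went the other way, with 16 of 20 members higher with EpEX, a median of 0.22, 0 called, and 5 without overlap, all higher (3.18% of all genes tested). KIF11, a spindle motor, measured 51.6, 45.6, and 33.2 CPM with EpEX and 22.1, 21.9, 21.1, and 29.8 CPM with EGFhigh (log2FC 0.88, unadjusted p = 0.0024). KIF20A, a motor of cytokinesis, measured 25.6, 19.5, and 27.5 CPM with EpEX and 16.0, 15.4, 11.3, and 9.29 CPM with EGFhigh (log2FC 0.90). Untreated cells measured 53.2, 39.5, and 49.1 CPM of KIF11, overlapping EpEX, and 45.2, 30.6, and 34.1 CPM of KIF20A, all above EpEX. The list had a median of -0.75 for EGFhigh against untreated cells and -0.43 for EpEX against Fc. Among G1 regulators, CDKN2B, a CDK inhibitor, measured 36.6, 41.5, and 81.0 CPM with EpEX and 30.6, 34.1, 32.2, and 32.8 CPM with EGFhigh, without overlap (log2FC 0.68, unadjusted p = 0.011).

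A second list of 19 genes linked to FOXO factors or restrained by growth factors was added after KLHL24, BCL6, and HBP1 had been seen, and it is no independent evidence. In it 16 genes were higher with EpEX, 0 were called, 7 had an unadjusted p under 0.05, and the median was 0.70. BCL2L11, which encodes the BH3-only protein BIM, measured 20.8, 8.69, and 16.6 CPM with EpEX and 5.44, 4.39, 2.54, and 4.93 CPM with EGFhigh. It was the 1 member of 19 without overlap, against 3.18% of all genes tested (log2FC 1.83, unadjusted p = 8.8e-04). The FOXO genes themselves were near zero, with 0.02 for FOXO1, -0.11 for FOXO3, and -0.03 for FOXO4. TXNIP, an inhibitor of glucose uptake, measured 214, 53.2, and 94.0 CPM with EpEX, and 114, 50.2, 37.8, and 24.3 CPM with EGFhigh, with overlap, and 425, 276, and 418 CPM in untreated cells.

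**Figure D4:**
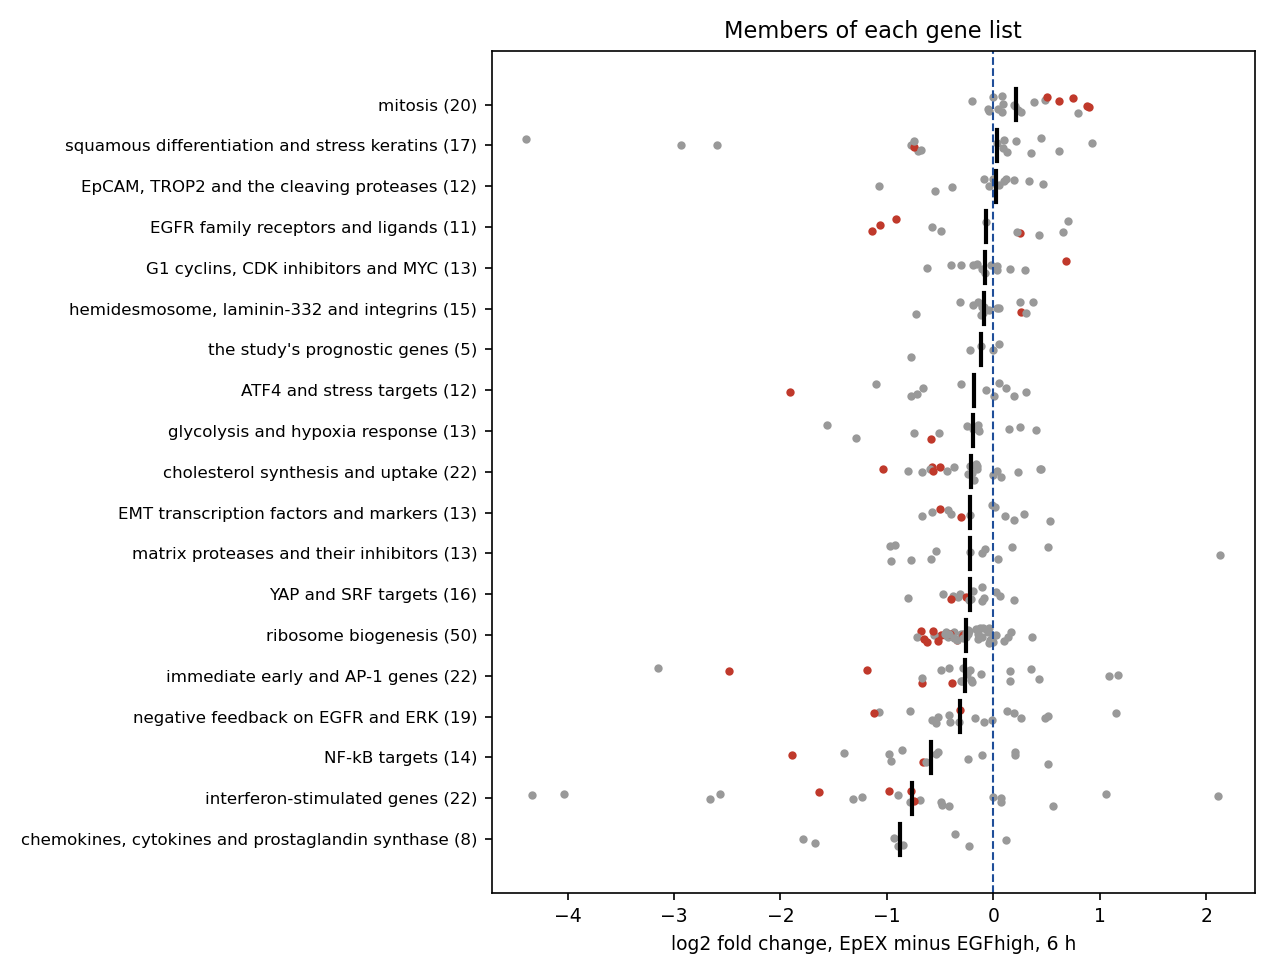
Horizontal axis, log2 fold change of EpEX minus EGFhigh at 6 h of every tested member of 19 gene lists (number of members in brackets); points are genes, red where all libraries of a ligand lay on one side of all libraries of the other, black bars are list medians, and the dashed line is the median of all genes. Interferon-stimulated genes (-0.76), NF-kB targets (-0.59, and -0.25 after subtraction of controls), and ribosome biogenesis genes (-0.26) lie to the left, and mitosis genes (0.22) to the right.

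Among genes of epithelial identity and EMT, EPCAM itself measured 309, 263, and 225 CPM with EpEX and 296, 237, 222, and 178 CPM with EGFhigh, with overlap (log2FC 0.19, 95% interval -0.25 to 0.63). The list of EpCAM, TROP2, and their proteases had 6 of 12 members higher, 0 without overlap, and a median of 0.02. EMT transcription factors and markers had 8 of 13 members lower and a median of -0.22, with CLDN4, a tight junction claudin, at a log2FC of -0.67. The EMT hallmark list had 102 of 152 members lower with a median of -0.14, and the pEMT list 48 of 90 with a median of -0.02. The study's list of EGFR-mediated EMT genes had 82 of 171 members lower with a median of 0.01. The study chose that list with EGFhigh libraries of this series at 72 h, so it is no independent evidence. In each of these lists 0 genes were called. At 6 h EGFhigh against untreated cells also called 0 genes of the study's list, with a median of -0.08. Its median between the ligands therefore does not compare them on a response present at 6 h.

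The study's 5 prognostic genes, which it drew from its list of EGFR-mediated EMT genes, had 4 members lower and 0 called. At 6 h EGFhigh against untreated cells called 0 of them too, with a median of 0.29. ITGB4, the integrin of hemidesmosomes, measured 749, 1058, and 1190 CPM with EpEX and 671, 888, 837, and 1462 CPM with EGFhigh, with overlap (log2FC 0.05, 95% interval -0.51 to 0.61). DDIT4, a stress-induced inhibitor of mTORC1, measured 362, 259, and 158 CPM with EpEX and 614, 411, 485, and 275 CPM with EGFhigh, with overlap (log2FC -0.77, 95% interval -1.71 to 0.17). For TIMP1, a metalloproteinase inhibitor, the log2FC was -0.22, and for the hydrolase NCEH1 it was -0.11. Hemidesmosome, laminin-332, and integrin genes had 9 of 15 members lower and a median of -0.08, and ITGA6 was without overlap (log2FC 0.26, unadjusted p = 0.11).

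Among the remaining lists, cholesterol synthesis and uptake had 16 of 22 members lower and a median of -0.21, with SQLE, the squalene epoxidase, at 67.3, 74.5, and 88.8 CPM with EpEX and 84.3, 124, 134, and 143 CPM with EGFhigh, with overlap (log2FC -0.67, unadjusted p = 0.027). YAP and SRF targets had 13 of 16 lower and a median of -0.22, and glycolysis and hypoxia genes 10 of 13 and a median of -0.19. ATF4 and stress targets had 7 of 12 lower and a median of -0.18. CHAC1, a glutathione-degrading enzyme of that list, measured 9.74, 18.6, and 6.24 CPM with EpEX and 69.0, 21.8, 39.4, and 49.7 CPM with EGFhigh, without overlap (log2FC -1.91, unadjusted p = 0.034). Matrix proteases and their inhibitors had 9 of 13 lower and a median of -0.22, G1 regulators 8 of 13 and -0.08, and chemokines and cytokines 7 of 8 and -0.87, the last resting on genes of few counts. For chemokines and cytokines the median after subtraction of each ligand's control was 0.08, of the opposite sign. The same subtraction gave medians of -0.17 for negative feedback regulators, -0.44 for cholesterol genes, -0.35 for YAP and SRF targets, and -0.35 for glycolysis and hypoxia genes. It turned the sign of the small medians of the EpCAM (-0.03), hemidesmosome (0.03), G1 (0.03), and squamous differentiation (-0.17) lists. Squamous differentiation genes had 8 of 17 lower and a median of 0.04. KRT6A, a stress keratin, measured 97.2, 66.8, and 78.5 CPM with EpEX, 104, 117, 108, and 214 CPM with EGFhigh, and 16.9, 11.9, and 18.7 CPM in untreated cells, so both ligands stood above untreated cells. In each list of this paragraph 0 genes were called.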

How the data were processed

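Kyse30 cells were profiled by 3′ RNA-seq (QuantSeq FWD). The authors deposited raw counts of reads per gene for each library. The submitters' processing notes name STAR, HTSeq, and GRCh38/hg38, and versions, annotation, strand setting, and use of molecular identifiers are not given in the sources used here. The 5 tally rows of reads on no gene were left out (6.2 to 7.94% no feature, 29.2 to 36.2% not unique in the 7 libraries). Depth is given in the report.

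All 43 Kyse30 libraries were fitted together with edgeR 4.0.16 in R 4.3.3 (TMM, filterByExpr by group with minimum count 10 and total 15, quasi-likelihood test, Benjamini-Hochberg). CPM values use TMM factors. Symbols matched 57754 of 58395 identifiers. No libraries of a group were identical. Alternatives were DESeq2 1.42.0, RLE size factors, no filter, a mean of at least 5 CPM, smaller fits, the replicate number as a block, and each library left out. The scripts were tested on simulated data.

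Same-numbered EpEX and EGFhigh libraries correlated at 0.142, 0.0446, and 0.142 in their deviations from group means, and others at -0.156 to 0.018. The correlations were small, and the main fit did not pair samples by number. A shared run of same-numbered libraries is not excluded, and the counts with the number as a block are given beside the main result.

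Named genes were called genes without overlap and a mean of at least 5 CPM (the 12 largest changes in each direction), the 10 smallest p in each direction, and the 4 smallest p of each list; others are marked. The comparison, gene lists, and tests were chosen with earlier results of these data known. A few genes that the rule names are not reported here.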

Additional observations from a re-analysis of the deposited data

Results flagged for a closer look

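In 8 of 93 genes, 1 EGFhigh library lay far from the other 3, by Dixon's criterion for 4 samples. Its rate by chance, about 1 in 20, holds for normally distributed values and was not checked for CPM. A gene with counts in only 1 of the 4 libraries always meets the criterion, so the number flagged is a description. EGFhigh replicate 1 was high in SERPINB2 (14.3 CPM) and S100A8 (7.82 CPM). EGFhigh replicate 3 was high in CXCL8 (3.32 CPM), and held the single count of BMF (0.195 CPM) and of TNF (0.195 CPM). EGFhigh replicate 4 was high in KIF11 (29.8 CPM), KRT17 (16.4 CPM), and KRT6A (214 CPM). For KIF11 this library was the one nearest to EpEX, and for KRT6A and KRT17 the one farthest from it.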

How the results depend on the processing

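For EpEX against EGFhigh the count of 1 called gene became 5 with DESeq2, 31 without a filter on low counts (11 higher, 20 lower), and 0 with only the 6 h libraries. With only the 7 libraries it was again 1, but IRF1 in place of KLHL24. Leaving out single libraries gave 0 to 2. With the replicate block 3 genes were called, and 30 with the replicate block and only the libraries compared (2 higher, 28 lower). Mitochondrial shares were lowest in replicate 1 of both groups (6.36 and 5.99%, against 9.31 to 12.5% in the others). Each EpEX library correlated best with the EGFhigh library of its own number, a hint from the data and not the design. The contrast net of controls called 2 genes without a filter and 2 with the replicate block and only the libraries compared, and 0 under every other alternative run, with 0 throughout when single libraries were left out. Against EGFlow, 1 gene was called with DESeq2 and 16 without a filter, and 0 to 1 when single libraries were left out. The medians of the genes called with EGFlow ranged from -0.46 to -0.23 and from 0.21 to 0.39 when single libraries were left out, and kept their sign under every alternative run. KLHL24 ranged from 1.82 to 2.15. Of 1378 values of named genes under alternatives, 9 changed sign and 1 (TNF) became 0. ITGB4 was -0.11 with the replicate block and ranged from -0.14 to 0.32 when single libraries were left out. Such ranges were -0.061 to 0.47 for ADAM10, -0.043 to 0.50 for DST, -0.30 to 0.034 for NCEH1, and -2.22 to 0 for TNF. The median of EGFR receptors and ligands was 0.07 with DESeq2, 0.05 without a filter, 0.16 without EGFhigh replicate 4, and 0.19 without EpEX replicate 4. The causes were not tested. Depth limits genes of a few CPM most, above all in EpEX replicate 4.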
